A study of Mus musculus with 12 samples.

Results

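The genes described here are 8 members of the canonical Wnt pathway, Tcf7, Lef1, Axin2, Wnt3, Ctnnb1, Apc, Tle3 and Tle4, followed through all 12 RNA-sequencing libraries of mature mouse T cells. They were taken from a list of 8 symbols, with no threshold on a measured value, and all 8 were found among the 12809 genes of the expression table, each on 1 identifier. The libraries came from CD4 and CD8 T cells sorted from the lymph nodes of 2 kinds of female mice, with 3 libraries per group. C57BL/6 (B6) mice were 10 weeks old and carried the normal coreceptor loci. FlipFlop mice were 14 weeks old and homozygous for exchanged coreceptor alleles, so that the Cd4 locus encoded CD8 protein (the CD8αβ.1 form) and the Cd8a locus encoded CD4 protein. The altered Cd8a locus was made in 129R1 embryonic stem cells, whereas the altered Cd4 locus came from B6 stem cells. The study states that genes of strain 129 from the former line remain in FlipFlop mice, with no positions given in its text. Strain of mouse and age moved together and cannot be told apart. The labels do not say whether the 3 libraries of a group came from separate animals, so p-values measure the spread between these libraries, which may be technical.

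Wnt proteins are secreted ligands. Without them, a cytoplasmic complex built on Apc and the scaffold Axin2 marks beta-catenin, the product of Ctnnb1, for destruction, and with them beta-catenin enters the nucleus. There it binds TCF1 (Tcf7) and LEF1 (Lef1), DNA-binding factors of the pathway in T cells, which otherwise recruit the corepressors TLE3 and TLE4. In T cells TCF1 and LEF1 are known for their part in thymocyte development, in the choice between the helper and cytotoxic lineages and in the upkeep of naive and memory cells.

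The design separates 2 properties of a T cell that go together in normal mice. B6 CD4 and FlipFlop CD8 T cells took their coreceptor protein from the Cd4 locus and are called the Cd4-locus groups, whereas B6 CD8 and FlipFlop CD4 T cells are called the Cd8a-locus groups. The locus effect is the mean of the Cd4-locus groups minus that of the Cd8a-locus groups, the coreceptor effect is CD4 minus CD8 averaged over the 2 strains, and the strain effect is FlipFlop minus B6. By construction the locus effect is 0.5 times the difference between the CD4 minus CD8 difference in B6 and that in FlipFlop, so its test is the test that this difference changed between strains. Levels are CPM, reads scaled to a common library total, after TMM scaling by the authors, differences are of log2(CPM + 0.5), and a gene is called where limma gave a Benjamini-Hochberg adjusted p under 0.05 over the 11595 genes that reached 1 CPM in 3 or more libraries.

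Each library held about 26600000 to 33100000 reads on the listed genes, as computed from the size of 1 read in the table. Cd4 was at 961 CPM or more in every B6 CD4 library and at 637 to 719 CPM in FlipFlop CD4, against at most 43.6 CPM in the CD8 groups. Cd8a was at 1489 ± 15.3 CPM (SD, n = 3) in B6 CD8, with 145 ± 11.7 in FlipFlop CD8, against at most 1.59 CPM in the CD4 groups. Zbtb7b, which encodes the helper-lineage factor ThPOK, was at 196 ± 5.99 CPM in B6 CD4, with 168 ± 5.62 in FlipFlop CD8, and at 1.55 ± 0.416 and 2.29 ± 0.464 CPM in the Cd8a-locus groups. All 6 T cell markers on a fixed list were measured, and their summed level was 3309 to 4815 CPM. The first B6 CD4 library stood apart from its 2 replicates, with a root mean square log2 difference of 0.383 from them, against 0.203 to 0.309 for the other libraries.

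The members differ by orders of magnitude in level. Per kilobase of annotated exon, averaged over the 12 libraries, Tcf7 was at 516 CPM, Ctnnb1 at 52.9, Lef1 at 49.9, Tle3 at 16.4, Tle4 at 16.1, Axin2 at 5.74, Apc at 2.69 and Wnt3 at 0.456. TCF1 mRNA was thus the most abundant product of the list in these mature T cells, and the ligand gene Wnt3 the least. In the locus effect 4 of the 8 members were called, Wnt3 and Axin2 higher and Lef1 and Tle4 lower in the Cd4-locus groups. Over all genes tested 39.3% were called in that comparison, 19.9% higher and 19.4% lower, so the share among the members was near the background.

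The 4 members called in the locus effect are the ones on which the description turns, and the 250 bases before their RefSeq start (GRCm38.p6, the most upstream start where a gene has several) are shown so that their TCF/LEF letters can be seen. Capitals mark CTTTG or its reverse complement CAAAG, the core of the sequence that TCF1 and LEF1 bind, searched on both strands.
Wnt3, chr11:103773925-103774174, plus strand: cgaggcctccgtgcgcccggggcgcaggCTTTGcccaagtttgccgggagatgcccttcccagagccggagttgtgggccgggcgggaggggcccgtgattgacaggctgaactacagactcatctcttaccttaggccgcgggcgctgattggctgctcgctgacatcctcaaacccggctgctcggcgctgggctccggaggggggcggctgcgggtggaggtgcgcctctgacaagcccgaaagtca
Lef1, chr3:131110047-131110296, plus strand: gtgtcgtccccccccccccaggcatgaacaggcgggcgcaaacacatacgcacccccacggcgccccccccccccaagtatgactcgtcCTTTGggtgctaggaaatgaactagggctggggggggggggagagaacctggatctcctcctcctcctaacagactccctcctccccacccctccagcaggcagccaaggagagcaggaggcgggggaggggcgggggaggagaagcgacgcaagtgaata
Axin2, chr11:108920099-108920348, plus strand: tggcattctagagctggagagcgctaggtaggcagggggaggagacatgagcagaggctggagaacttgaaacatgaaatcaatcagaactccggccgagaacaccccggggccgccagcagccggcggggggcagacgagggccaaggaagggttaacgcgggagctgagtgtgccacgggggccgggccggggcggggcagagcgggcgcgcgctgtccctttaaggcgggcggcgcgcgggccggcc
Tle4, chr19:14598184-14598433, minus strand: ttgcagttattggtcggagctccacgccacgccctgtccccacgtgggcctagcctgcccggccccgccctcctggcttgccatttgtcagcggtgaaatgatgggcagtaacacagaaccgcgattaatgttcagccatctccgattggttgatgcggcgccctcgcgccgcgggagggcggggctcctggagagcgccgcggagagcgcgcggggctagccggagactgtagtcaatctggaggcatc
Wnt3 held 1 such core, beginning 222 bases before the start, and Lef1 held 1, beginning 161 bases before it. The windows of the other 3 Lef1 starts held 2, 1 and 3 cores. Axin2 and Tle4 held none in these windows. Of 32851 mouse promoter windows of the same length, 48.6% held at least 1 core, so a match is common. The longer forms CTTTGAA and CTTTGAT, with their reverse complements TTCAAAG and ATCAAAG, which each contain the core, were in 7.48% of all windows and in none of the 13 windows of the 7 members looked up. These are letters in a window and not sites of binding.

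**Figure D1:**
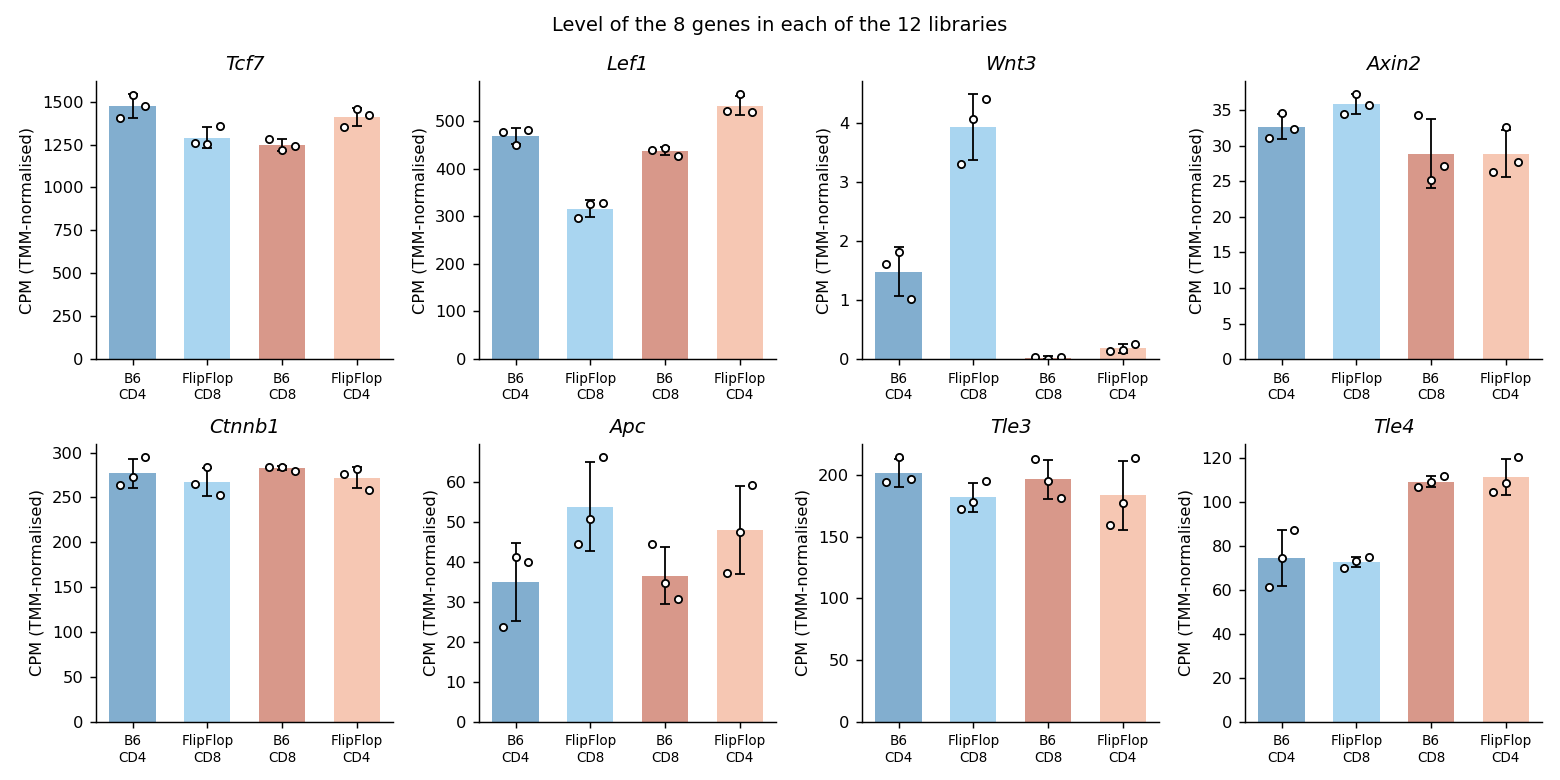
Level of each of the 8 genes in CPM (vertical axes, from 0) in the 4 groups. Open circles are the 3 libraries, bars the mean and lines ± 1 SD; blue marks the Cd4-locus groups and red the Cd8a-locus groups. The Wnt3 libraries of the Cd4-locus groups lie at 1.01 to 4.40 CPM and those of the Cd8a-locus groups at 0 to 0.260 CPM, while Ctnnb1 runs from 253 to 295 CPM over all 12 libraries.

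Wnt3 (ENSMUSG00000000125.5, chromosome 11, 103774150 to 103817957, plus strand), a secreted ligand of the canonical pathway, showed the widest separation of the 8. The 3 B6 CD4 libraries were at 1.62, 1.81 and 1.01 CPM. The 3 FlipFlop CD8 libraries were at 3.31, 4.07 and 4.40 CPM. In B6 CD8 the values were 0.0374, 0 and 0.0331 CPM, and in FlipFlop CD4 0.131, 0.145 and 0.260 CPM. Every library of the Cd4-locus groups was above every library of the Cd8a-locus groups. The B6 CD8 values amount to 2 reads in all and lie under the floor of 3 reads, which was 0.0857 to 0.120 CPM per library, whereas B6 CD4 had 132 reads, FlipFlop CD8 380 and FlipFlop CD4 15.

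In B6 the CD4 to CD8 ratio of Wnt3 rates over the pooled reads was 59.9, with a 95% interval of 16.3 to 500 that covers counting error only. In FlipFlop the ratio ran the other way, with CD8 above CD4 by 22.3 (13.4 to 40.3). With 0.5 CPM added, which compresses the change of so low a gene, the CD4 minus CD8 difference was 1.90 in B6 (SE 0.18, limma adjusted p = 8.24e-06) and -2.70 in FlipFlop (SE 0.18, adjusted p = 3.04e-07). The locus effect was 2.30 (SE 0.13, adjusted p = 3.19e-08). These fitted sizes depend on the added amount: with 0.1 CPM the locus effect was 3.76 and with 1 CPM it was 1.66, called each time. Wnt3 passed the filter on low values only through the Cd4-locus groups, so that it had to differ between the locus groups to be tested at all.

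Wnt3 also differed within the Cd4-locus groups. FlipFlop CD8 was above B6 CD4 in all libraries, with a ratio of read rates of 2.70 (2.21 to 3.31) and a difference of 1.18 (SE 0.18, adjusted p = 0.00094 by limma). Within the Cd8a-locus groups FlipFlop CD4 was above B6 CD8 in every library, but the difference of 0.37 (95% interval -0.03 to 0.77) was not called, adjusted p = 0.251, and rests on 15 against 2 reads. With 0.1 CPM added it was 1.16 and was called (limma adjusted p = 0.0316). The ratio of read rates in these 2 groups was 7.23 (1.68 to 65.1), an interval that covers counting error only. The order of the groups was therefore FlipFlop CD8, B6 CD4, FlipFlop CD4 and B6 CD8. The last 2 were not called apart by limma at the main setting.

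Markers of other T cell subsets moved with Wnt3. All 5 of 5 regulatory T cell markers (Foxp3, Il2ra, Ctla4, Ikzf2 and Nrp1) were called higher in the Cd4-locus groups, and none was at 0 in any group mean. Over all genes tested 19.9% were called higher in that comparison. Their summed level was 821 to 978 CPM in FlipFlop CD8, 277 to 379 in B6 CD4, 25.9 to 31.3 in FlipFlop CD4 and 14.2 to 19.9 in B6 CD8. Foxp3, the defining factor of regulatory T cells, was at 108 ± 18.1 CPM in B6 CD4, 326 ± 31.1 in FlipFlop CD8, 1.99 ± 0.355 in FlipFlop CD4 and 0.967 ± 0.433 in B6 CD8. The groups fell in the same order for Foxp3 as for Wnt3. All 5 of 5 follicular helper markers were also called higher in the Cd4-locus groups, at sums of 165 to 198 CPM in B6 CD4 and 232 to 294 in FlipFlop CD8, against 81.6 to 96.5 in B6 CD8 and 86.8 to 115 in FlipFlop CD4. Among those 5, Il21, passed the filter only through the Cd4-locus groups. The part of these subsets in the Wnt3 result was not tested, and in bulk samples fewer cells of a type and less RNA per cell cannot be told apart.

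The 3 genes with the profile most like that of Wnt3, by root mean square difference of centred log2 values over the 12 libraries among 8066 genes of at least 10 CPM on average, were Ikzf4, Stx11 and Swap70, at 0.275, 0.278 and 0.290. The spread of Wnt3 around its own mean was 1.24 on the same scale. Ikzf4, which encodes the Ikaros-family factor Eos, had group means of 49.9 CPM in FlipFlop CD8, 20.7 in B6 CD4, 5.76 in FlipFlop CD4 and 3.57 in B6 CD8. It thus followed the same order of groups at a higher level.

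**Figure D2:**
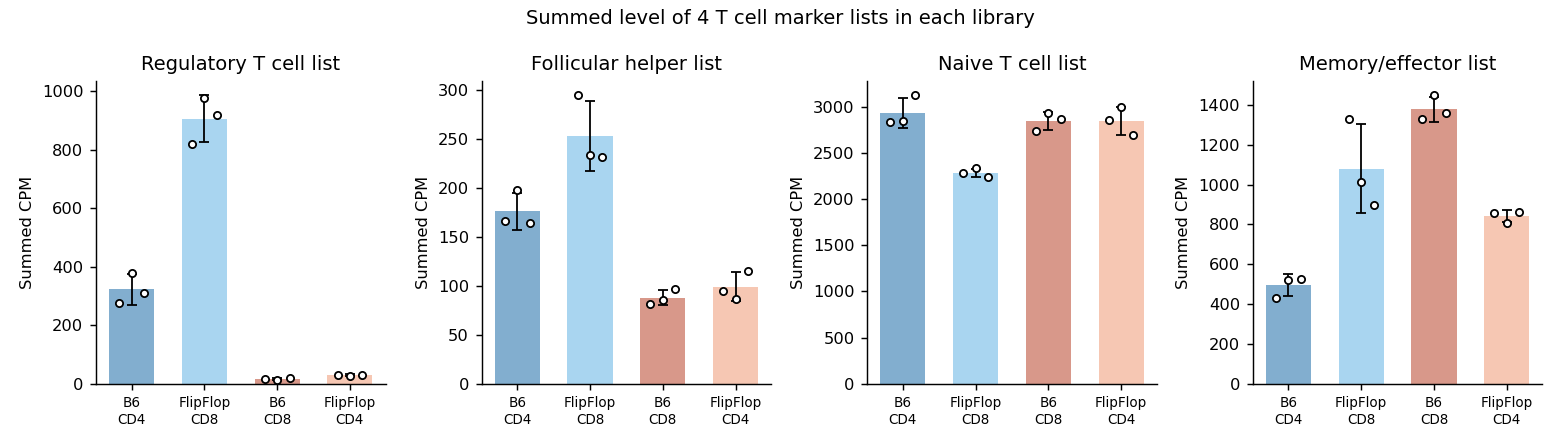
Summed CPM (vertical axes, from 0) of 4 marker lists in the 4 groups, with circles for the 3 libraries, bars for the mean and lines for ± 1 SD. The regulatory T cell sum is 821 to 978 CPM in FlipFlop CD8 and at most 31.3 CPM in the Cd8a-locus groups, and the naive sum is lowest in FlipFlop CD8, at 2242 to 2331 CPM.

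Lef1 (ENSMUSG00000027985.14, chromosome 3, 131110471 to 131224356, plus strand) encodes LEF1, one of the 2 DNA-binding partners of beta-catenin among the members. The FlipFlop CD8 libraries were at 297, 325 and 327 CPM. The FlipFlop CD4 libraries were at 522, 557 and 521 CPM. The B6 CD4 libraries held 477, 450 and 481 CPM and those of B6 CD8 held 440, 443 and 427 CPM. FlipFlop CD8 was below and FlipFlop CD4 above every B6 library, with the B6 groups between them.

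In FlipFlop, Lef1 was 1.68-fold higher in CD4 than in CD8 T cells, or 0.75 on the log2 scale (SE 0.06, limma adjusted p = 2.09e-06). In B6 the difference was 0.10 (SE 0.06, 95% interval -0.04 to 0.24) and was not called, adjusted p = 0.289, although the 2 B6 groups did not overlap. The test of the change between strains, the locus effect, gave -0.33 (SE 0.05, adjusted p = 9.24e-05). Lef1 was the 1 member called in the coreceptor effect, at 0.43 (SE 0.05, adjusted p = 0.000219), where 5.49% of all genes were called, 1.71% higher and 3.78% lower. Lef1 therefore did not divide along the coreceptor locus alone: the Cd4-locus groups sat 2nd and last of the 4.

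Between groups that share a locus, Lef1 was lower in FlipFlop CD8 than in B6 CD4 by a log2 difference of -0.57 (SE 0.06, limma adjusted p = 0.000106). FlipFlop CD4 exceeded B6 CD8 by 0.29 (SE 0.06, adjusted p = 0.0162), a call lost without B6 CD8 replicate 2 or 3 or FlipFlop CD4 replicate 2. Between groups that share a coreceptor, Lef1 of FlipFlop CD4 was above that of B6 CD4 by 0.18 (SE 0.06, adjusted p = 0.0482) and FlipFlop CD8 was below B6 CD8 by -0.47 (SE 0.06, adjusted p = 9.08e-05). In the order of levels, FlipFlop CD4, B6 CD4, B6 CD8 and FlipFlop CD8, the middle pair alone was not called apart. The call between the top pair was near the threshold and was not run under other settings or with libraries left out.

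Beside this, the 5 naive T cell markers (Ccr7, Il7r, S1pr1, Klf2 and Satb1) summed to 2242 to 2331 CPM in FlipFlop CD8, below the ranges of B6 CD4 (2835 to 3122), FlipFlop CD4 (2697 to 3000) and B6 CD8 (2734 to 2927). Of the 5, 3 were called higher and 0 lower in FlipFlop CD4 than in FlipFlop CD8, against 15.3% and 16.0% of all genes tested. In FlipFlop CD8 against B6 CD4, 0 were higher and 3 lower, against 13.2% and 14.4% of all genes. The 6 memory and effector markers (Il2rb, Ccl5, Cxcr3, Nkg7, Tbx21 and Itgb1) summed to 1327 to 1447 CPM in B6 CD8 and 896 to 1331 in FlipFlop CD8. In FlipFlop CD4 the sum was 806 to 861 and in B6 CD4 430 to 528. Of the 6, 1 was called higher and 2 lower in FlipFlop CD4 than in FlipFlop CD8. In the locus effect 1 was higher and 1 lower, against 19.9% and 19.4% of all genes. In the coreceptor effect 0 were higher and 5 lower, against 1.71% and 3.78%. Il2rb alone was at 601 CPM on average in FlipFlop CD8. Itgb1 was at 289 CPM on average there and 120 in B6 CD8, and Ccl5 ran from 15.3 to 164 CPM in FlipFlop CD8. The naive sum, like Lef1, was lowest in FlipFlop CD8, while its ranges in the other 3 groups overlapped. The part of cell makeup in the Lef1 result was not tested.

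The genes nearest to Lef1 in profile were Rtn4rl1, Rflnb and Rasgrp2, at root mean square differences of 0.101, 0.106 and 0.117 against a spread of 0.281 for Lef1 itself. An antisense gene, Gm43352, overlaps 1208 exonic bases of Lef1, and counting by strand is not given in the sources used here. It was at 8.29 ± 0.587 CPM in FlipFlop CD4, 7.72 ± 1.52 in B6 CD4, 6.52 ± 1.28 in B6 CD8 and 5.39 ± 0.364 in FlipFlop CD8, small beside Lef1 and in the same order of groups.

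Tcf7 (ENSMUSG00000000782.15, chromosome 11, 52252371 to 52283014, minus strand), which encodes TCF1, varied little. The B6 CD4 libraries were at 1402, 1541 and 1476 CPM and the B6 CD8 libraries at 1285, 1219 and 1242 CPM. The FlipFlop CD4 libraries were at 1353, 1458 and 1419 CPM and the FlipFlop CD8 libraries at 1256, 1254 and 1360 CPM. CD4 means were above CD8 means in both strains, but in FlipFlop the groups overlapped. With the TMM factor taken out the FlipFlop difference was -0.05, a setting that shifted the median of all genes there by -0.17.

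In B6, Tcf7 was 1.18-fold higher in CD4 than in CD8 T cells (log2 difference 0.24, SE 0.07, limma adjusted p = 0.0309). That call was lost with the 2 B6 groups fitted alone (adjusted p = 0.0888) and without B6 CD4 replicate 2 or 3 or any 1 of the 3 B6 CD8 libraries (adjusted p up to 0.114). In FlipFlop the difference was 0.13 (95% interval -0.03 to 0.29, adjusted p = 0.217) and was not called. The coreceptor effect of 0.18 (SE 0.05) reached an adjusted p of 0.0648, and 0.0328 without B6 CD4 replicate 1, the library that stood apart. The locus effect of 0.05 (95% interval -0.06 to 0.17) was not called, adjusted p = 0.448, but with the TMM factor taken out, which shifted the median of all genes by 0.12, it was 0.18 and called (adjusted p = 0.0339). No neighbours in the order of the 4 groups (B6 CD4, FlipFlop CD4, FlipFlop CD8 and B6 CD8) differed beyond their spread.

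Ctnnb1 (ENSMUSG00000006932.17, chromosome 9, 120929216 to 120960507, plus strand), which encodes beta-catenin, was the steadiest of the 8. The 6 B6 libraries held 264, 273 and 295 CPM for CD4 and 284, 283 and 280 for CD8. The 6 FlipFlop libraries held 276, 282 and 259 CPM for CD4 and 265, 284 and 253 for CD8. Its groups lay close together, and limma called Ctnnb1 in 0 of the 9 comparisons, with an unadjusted p of at least 0.245 in each. The CD4 minus CD8 difference had a 95% interval of -0.17 to 0.12 in B6 and -0.12 to 0.17 in FlipFlop on the log2 scale, which bounds what these libraries allow. Ulk4 on the opposite strand overlaps 759 exonic bases of Ctnnb1 and was not analysed here.

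Apc (ENSMUSG00000005871.15, chromosome 18, 34220924 to 34322552, plus strand), the large scaffold of the destruction complex, varied widely between replicates, with the largest SE of the 8 members on the log2 scale (0.23 for CD4 minus CD8 in either strain, against 0.18 for Wnt3). The B6 CD4 libraries held 23.7, 41.2 and 40.0 CPM and the B6 CD8 libraries 44.5, 34.6 and 30.5 CPM. The FlipFlop CD4 libraries held 37.1, 47.4 and 59.1 CPM and the FlipFlop CD8 libraries 44.4, 50.7 and 66.2 CPM. FlipFlop means were above B6 means for both cell types, with overlapping libraries. The FlipFlop CD8 libraries were all above those of B6 CD4, by 0.64 (SE 0.23), but this was not called (limma adjusted p = 0.0597). That difference was called in 4 fits with another setting or 1 library left out. The strain effect was 0.51 (SE 0.17, limma adjusted p = 0.0363). It was not called without any 1 of 7 libraries, among them B6 CD4 replicate 1, whose value was the lowest of the 12 (0.38, adjusted p = 0.061). The CD4 minus CD8 difference was -0.09 (95% interval -0.60 to 0.42) in B6 and -0.17 (-0.68 to 0.34) in FlipFlop.

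Axin2 (ENSMUSG00000000142.15, chromosome 11, 108920349 to 108950783, plus strand) encodes a scaffold of the same complex and is itself a widely used target gene of beta-catenin and TCF. Its libraries were at 31.1, 34.6 and 32.4 CPM in B6 CD4, with 34.5, 37.3 and 35.8 in FlipFlop CD8. They were at 34.4, 25.3 and 27.1 CPM in B6 CD8, with 26.4, 32.7 and 27.7 in FlipFlop CD4. The Cd4-locus groups had the higher means, and 1 library of each Cd8a-locus group lay within their range.

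The locus effect of Axin2 was 0.25 (SE 0.08, limma adjusted p = 0.0258), a 1.19-fold difference. The call was lost without any 1 of 6 libraries, B6 CD4 replicate 2, B6 CD8 replicates 2 and 3, FlipFlop CD4 replicates 1 and 3 and FlipFlop CD8 replicate 2, with adjusted p of 0.0544 to 0.0682. Neither strain alone gave a call: CD4 minus CD8 was 0.19 (95% interval -0.06 to 0.43, adjusted p = 0.270) in B6 and -0.31 (-0.56 to -0.07, adjusted p = 0.0544) in FlipFlop. Without B6 CD8 replicate 1 the B6 difference was 0.32 and called (adjusted p = 0.0410), and the FlipFlop difference was called under 3 other settings and without any 1 of 4 libraries. FlipFlop CD8 exceeded B6 CD8 by 0.32 (SE 0.11, adjusted p = 0.0374), groups that differ in both strain and locus. The nearest profiles to Axin2 were those of Zfp638, Smad3 and Ubash3b, at 0.0767, 0.0911 and 0.0924 against a spread of 0.179 for Axin2.

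Tle4 (ENSMUSG00000024642.17, chromosome 19, 14448150 to 14598051, minus strand), a Groucho-family corepressor that TCF1 and LEF1 recruit, divided by coreceptor locus in the opposite sense to Wnt3. The Cd4-locus libraries were at 61.4, 74.7 and 87.1 CPM in B6 CD4, with 70.1, 73.2 and 74.9 in FlipFlop CD8. The Cd8a-locus libraries were at 107, 109 and 112 CPM in B6 CD8, with 105, 109 and 120 in FlipFlop CD4. The 6 libraries of either kind did not overlap with the other 6.

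Tle4 was lower in CD4 than in CD8 T cells of B6 by a log2 difference of -0.57 (SE 0.10, limma adjusted p = 0.00145) and higher in CD4 than in CD8 T cells of FlipFlop by 0.61 (SE 0.10, adjusted p = 0.00073). The locus effect was -0.59 (SE 0.07, adjusted p = 3.99e-05), called by adjusted p under every other setting and without each library in turn, but not where more than a 5-fold difference was required. Neither the coreceptor effect (0.02, 95% interval -0.14 to 0.18) nor the strain effect (0.00, -0.16 to 0.16) was called. Groups of the same locus differed by 0.02 (-0.20 to 0.25) between FlipFlop CD4 and B6 CD8 and by -0.02 (-0.25 to 0.21) between FlipFlop CD8 and B6 CD4. Grap2, Gstcd and Spred2 had the nearest profiles, at 0.0750, 0.0797 and 0.0828 against a spread of 0.315 for Tle4. Grap2, which encodes an adaptor of T cell receptor signalling, was at group means of 607 CPM in B6 CD8 with 609 in FlipFlop CD4, and of 414 in B6 CD4 with 398 in FlipFlop CD8.

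Tle3 (ENSMUSG00000032280.16, chromosome 9, 61372366 to 61418497, plus strand), its closest relative on the list and a corepressor of the same family, was not called where Tle4 was. Its libraries held 194, 215 and 197 CPM in B6 CD4, with 213, 195 and 182 in B6 CD8. They held 159, 177 and 214 CPM in FlipFlop CD4, with 172, 178 and 195 in FlipFlop CD8. All 4 groups overlapped and Tle3 was called in 0 of the 9 comparisons by limma, with an unadjusted p of at least 0.103 in each. Its locus effect was 0.02, with a 95% interval of -0.14 to 0.18.

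**Figure D3:**
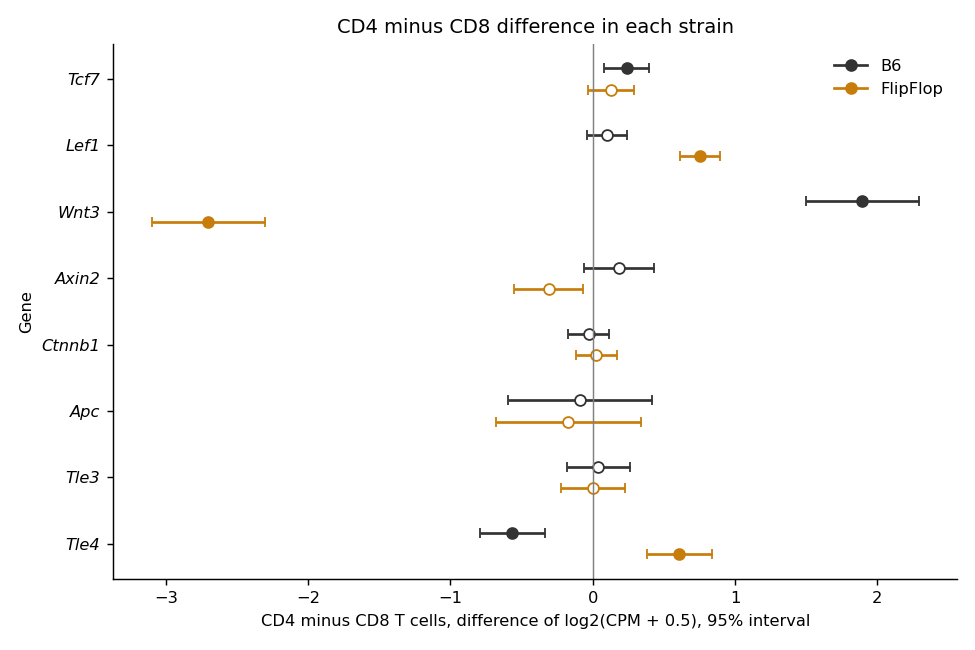
Difference of log2(CPM + 0.5) between CD4 and CD8 T cells (horizontal axis) for each of the 8 genes in B6 (black) and FlipFlop (orange), with 95% intervals; filled points were called. Wnt3 runs from 1.90 in B6 to -2.70 in FlipFlop and Tle4 from -0.57 to 0.61, whereas Lef1 has the same sign in both strains.

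Set side by side, 3 of the 8 members were called in the CD4 minus CD8 comparison of B6 (Tcf7 and Wnt3 higher, Tle4 lower), where 25.4% of all genes were called, 14.6% higher and 10.8% lower. In FlipFlop 3 were called (Lef1 and Tle4 higher, Wnt3 lower) against 31.3% of all genes, 15.3% higher and 16.0% lower. In the strain effect 3 were called, Wnt3 at 0.77 (SE 0.13, limma adjusted p = 0.00139) and Apc higher and Lef1 lower at -0.14 (SE 0.05, adjusted p = 0.0347), against 31.2% of all genes, 15.8% higher and 15.4% lower. The strain difference of Lef1 was -0.03 with the TMM factor taken out (adjusted p = 0.695), was not called after median-of-ratios rescaling (adjusted p = 0.0524) and was lost without any 1 of 8 libraries.

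Between the 2 Cd8a-locus groups 1 member was called (Lef1), against 7.92% of all genes, 4.17% higher and 3.75% lower. Between the 2 Cd4-locus groups 2 were called (Wnt3 higher and Lef1 lower in FlipFlop CD8), against 27.6% of all genes, 13.2% higher and 14.4% lower. For FlipFlop CD4 against B6 CD4, Lef1, Wnt3 and Tle4 were called, where 28.4% of all genes were, and for FlipFlop CD8 against B6 CD8, Lef1, Axin2, Wnt3 and Tle4 were called, where 44.7% were. These comparisons share libraries. The median locus effect of the members was 0.03, against -0.03 over all genes tested.

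The study used a rule of more than 5-fold with a p under 0.0001. On the log2(CPM + 0.5) scale that rule called Wnt3 in FlipFlop and no other member there, and no member in B6 or in the locus effect, where 2.16%, 1.55% and 1.61% of all genes were called. That Wnt3 missed 5-fold in B6 and in the locus effect rests on the added 0.5 CPM: with 0.1 CPM its differences were 3.65 and 3.76 on the log2 scale. By the adjusted p alone limma called 3, 3 and 4 members in those comparisons.

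The TMM factor applied by the authors bears on direction. With it taken out, the median over all genes shifted by 0.12 in the locus effect, -0.17 in the FlipFlop comparison, 0.16 between the Cd4-locus groups and 0.11 in the strain effect. The share of called genes that were higher went from 50.6% to 75.5% in the locus effect, 49.0% to 21.0% in FlipFlop, 57.3% to 69.5% in B6, 50.5% to 81.0% in the strain effect, 47.8% to 83.8% between the Cd4-locus groups and 31.1% to 16.3% in the coreceptor effect. In the 7 planned comparisons no called difference of a member changed sign under any setting. With the TMM factor taken out, the locus effect of Lef1 was -0.20 and was still called. The added comparisons between groups that share a coreceptor were run at the main setting only.

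The rest of the pathway was examined through 108 other genes listed by role, of which 54 were in the table and 48 were tested. In the locus effect 14 were called higher and 10 lower in the Cd4-locus groups (50.0% of those tested against 39.3% of all genes), with a median of -0.01. Of all genes, 19.9% were called higher and 19.4% lower, which is also the background for each role below. In the coreceptor effect 0 were higher and 3 lower, Wls, Ryk and Cd44, at -0.42, -0.65 and -0.56, which is 6.25% of the 48 against 5.49% of all genes. In the strain effect 11 were higher and 2 lower, 27.1% of the 48 against 31.2% of all genes.

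Among 3 ligand and secretion genes tested, Wnt10a, a ligand, rose in the Cd4-locus groups and Wnt5b, a ligand usually placed in the noncanonical branch, fell. Wnt10a was at 3.87 ± 1.31 CPM in B6 CD4 and 6.28 ± 0.435 in FlipFlop CD8, against 1.08 ± 0.305 in B6 CD8 and 2.28 ± 0.531 in FlipFlop CD4. Its locus effect was 1.37 and its strain effect 0.75. Wnt5b was at 4.53 ± 0.829 CPM in B6 CD8 and 7.12 ± 0.640 in FlipFlop CD4, against 2.15 ± 0.333 in B6 CD4 and 2.41 ± 0.382 in FlipFlop CD8, a locus effect of -1.16 and a strain effect of 0.37. Wls, the carrier that takes Wnt proteins to the surface, had a locus effect of -0.26 and a strain effect of 0.35. It was at 27.3 ± 1.31 CPM in B6 CD4 and at 41.8 to 47.0 CPM on average in the other groups.

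Of 4 receptor genes tested, 1 was called in the locus effect, Ryk, a receptor with a Wnt-binding domain, at 2.11. It was at 2.88 ± 0.327 CPM in B6 CD4 and 7.02 ± 2.18 in FlipFlop CD8, against 0.727 ± 0.170 in B6 CD8 with 0.610 ± 0.326 in FlipFlop CD4. Its strain effect was 0.47. No Cd8a-locus library reached 1 CPM of Ryk, so that, like Wnt3, it could pass the filter only by being higher in the Cd4-locus groups. Among 18 cytoplasmic genes, 3 were called higher, Csnk1e (0.53), Btrc (0.28) and Fbxw11 (0.17), which encode a kinase and the receptor subunits of the ubiquitin ligase for beta-catenin. In the same list 4 were called lower, Siah1a (-0.52), Dvl2 (-0.40), Gsk3a (-0.23) and Axin1 (-0.17). Calls in either direction made up 38.9% of the 18, near the 39.3% of all genes. In the strain effect Dvl1 alone of the 18 was called, at 0.22.

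Among 13 nuclear cofactor genes, Jup (1.33), Bcl9 (0.36), Hdac1 (0.29) and Pygo2 (0.20) were called higher in the locus effect and Bcl9l (-0.86) lower. Bcl9 and Bcl9l encode paired coactivators of beta-catenin and were called in opposite directions. Bcl9l was at 129 ± 24.2 CPM in B6 CD4 with 137 ± 12.6 in FlipFlop CD8, and at 233 ± 39.6 in B6 CD8 with 253 ± 36.6 in FlipFlop CD4. In the strain effect Chd8 (0.24) was called higher and Hdac1 (-0.32) and Pygo2 (-0.18) lower.

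Of 5 genes tested from the list of inhibitors and their relatives, Dkkl1 (1.87), Rnf43 (1.80) and Ctnnbip1 (0.70) were called higher in the Cd4-locus groups. Cxxc5 (-2.95) was called lower. Rnf43, a ubiquitin ligase that removes Wnt receptors from the surface, was at 15.1 ± 2.10 CPM in B6 CD4 and 24.2 ± 2.45 in FlipFlop CD8, against 4.62 ± 0.599 in B6 CD8 and 5.77 ± 1.01 in FlipFlop CD4. Cxxc5, an inhibitor that binds Dishevelled, was at 38.4 ± 6.20 CPM in B6 CD8 and 45.4 ± 3.60 in FlipFlop CD4, against 3.66 ± 0.416 in B6 CD4 and 6.72 ± 1.16 in FlipFlop CD8. Dkkl1 was at most 0.600 CPM in any Cd8a-locus library and also passed the filter only through the Cd4-locus groups. The genes of this list thus ran in both directions. In the strain effect Cxxc5 (0.52), Rnf43 (0.48) and Znrf3 (0.27) were called higher.

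Of 5 genes known as targets of the pathway in other tissues, Tiam1 (3.45) and Cd44 (1.35) were called higher in the Cd4-locus groups and Myc (-0.49) and Ccnd2 (-0.25) lower. Tiam1, a Rac exchange factor, was at 37.3 ± 7.03 CPM in B6 CD4 and 97.8 ± 5.90 in FlipFlop CD8, against 3.33 ± 0.594 in B6 CD8 and 7.53 ± 0.273 in FlipFlop CD4. Myc was at 105 ± 6.71 CPM in B6 CD4 with 101 ± 2.19 in FlipFlop CD8, and at 146 ± 7.83 in B6 CD8 with 144 ± 14.5 in FlipFlop CD4. In the strain effect Tiam1 (1.23) and Cd44 (0.29) were called higher. The target genes, with Axin2 beside them, did not move in 1 direction.

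**Figure D4:**
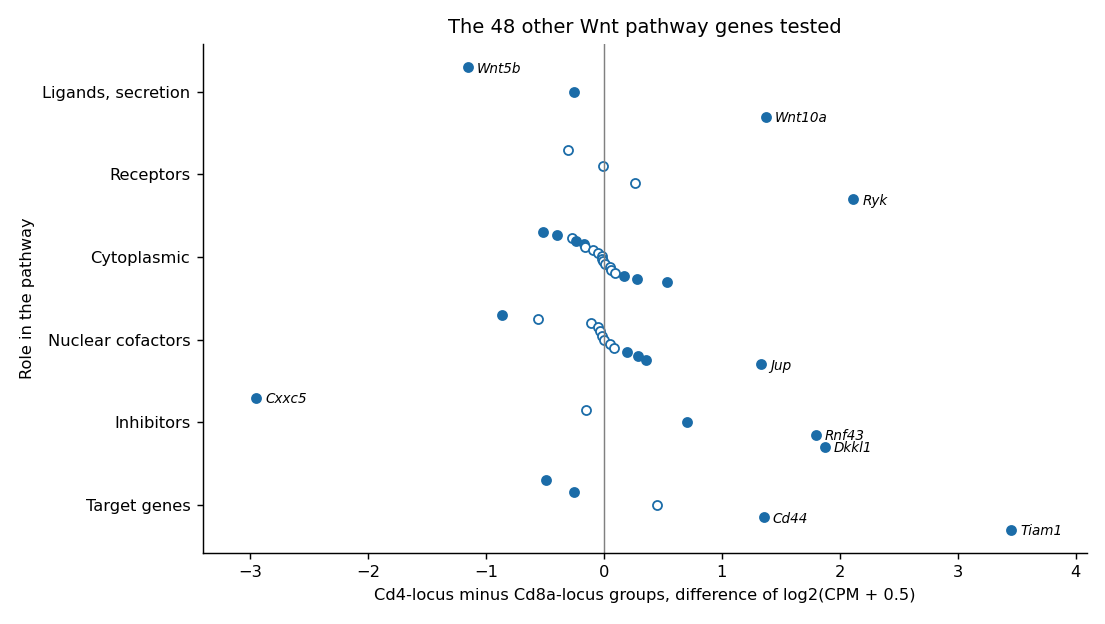
Locus effect (horizontal axis, difference of log2(CPM + 0.5)) of the 48 other Wnt pathway genes tested, by role; filled points were called and genes beyond 1 in size are named. The called genes lie on both sides of 0, 14 to the right and 10 to the left, from Cxxc5 at -2.95 to Tiam1 at 3.45.

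Markers of other cells were measured as well. In the strain effect 15.8% of all genes tested were called higher and 15.4% lower, the background for the strain counts that follow. The 6 B cell markers summed to 98.3 to 290 CPM and 5 of the 6 were called lower in FlipFlop. The 4 red cell markers in the table summed to 6.67 to 28.8 CPM and all 4 were called lower in FlipFlop. The 6 myeloid markers summed to 6.93 to 28.8 CPM, with 1 of 6 called lower in FlipFlop. The 4 natural killer markers in the table summed to 12.7 to 94.9 CPM, with 1 higher and 1 lower. Eomes, which the study counts as a cytotoxic-lineage T cell gene, made up most of that sum in the Cd8a-locus groups. It was at 69.1 ± 4.71 CPM in B6 CD8 and 64.9 ± 25.1 in FlipFlop CD4, where the sums averaged 77.7 and 68.3 CPM. Ncr1 of the same list was not in the table, so the sum does not single out natural killer cells. For the strain effect, in which Wnt3, Apc and Lef1 were called, 5 of 5 regulatory T cell markers were also called higher, and 4 of 6 T cell markers and 2 of 5 naive markers lower. In FlipFlop 4 of 6 myeloid markers were called lower in CD4 than in CD8 T cells, at sums of 6.93 to 9.88 against 13.5 to 28.8 CPM. In the locus effect 2 of 6 were called higher. Of all genes tested, 16.0% were called lower in the former comparison and 19.9% higher in the latter. The part of these lists in the members' results was not tested.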

How the data were processed

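RNA was sequenced from CD4 and CD8 lymph node T cells of B6 and FlipFlop mice, 3 libraries in each of 4 groups. By the study's methods the libraries were made with the SMARTer Universal Low Input kit, sequenced in pairs and aligned with STAR to mm10, while the submitters' processing notes name Trimmomatic and TopHat. The counting tool, annotation and filter on low values are not given in the sources used here. The deposited values are a signal, CPM that the authors scaled by TMM factors, so that the columns do not share 1 total. Low values were multiples of 0.01 of a read. Most of them were whole reads (76.2% to 80.2% per library) and the rest were fractions, so that no count model was fitted. Depth was about 26600000 to 33100000 reads per library, which bounds counting error only.

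Values were analysed as log2(CPM + 0.5) with limma 3.58.1 in R 4.3.3 (1 mean per group, all 12 libraries, trended variance), on 11595 genes that reached 1 CPM in 3 or more libraries. The remaining 1214 genes were not tested. P-values were adjusted by Benjamini-Hochberg over all genes tested. The 2 comparisons between groups that share a coreceptor were added to place neighbours in the order of levels. Ratios of Wnt3 reads have exact binomial 95% intervals. The fitting was tested on simulated data. All 12809 identifiers matched GENCODE M21 (GRCm38), from which positions and exon lengths were taken, and promoters came from RefSeq (GRCm38.p6). Promoters were looked up for 7 members and found for 7.

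The members, the pathway lists and the marker lists were chosen with earlier results of these data known. One gene of the naive marker list is not reported here, and the sums leave it out. Named beyond the members were pathway genes called in the locus, coreceptor or strain effect, and the 3 nearest profiles of each member called in the locus effect. Same-numbered CD4 and CD8 libraries deviated together in FlipFlop (correlations over genes 0.443, 0.271 and 0.513), and less so in B6 (0.184, 0.0887 and 0.352). Same-numbered libraries of B6 and FlipFlop, which cannot share an animal, also correlated, at 0.0751 to 0.294. What a shared number stands for is not given, and the main fit took no replicate block. Alternatives were other pseudocounts, other filters, other scalings, the compared groups alone, robust variance moderation, the fold rules of the study, replicate blocks and leaving out each library.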

Additional observations from a re-analysis of the deposited data

Results flagged for a closer look

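The CD4 minus CD8 difference changed between B6 and FlipFlop for 4 of the 8 members, as tested by limma through the locus effect, which is 0.5 times the change, where 39.3% of all genes tested were called. For Wnt3 it was 2.30 (adjusted p = 3.19e-08), with a difference of 1.90 in B6 and -2.70 in FlipFlop, but Wnt3 passed the filter on low values only through the Cd4-locus groups and had to differ to be tested. For Tle4 it was -0.59 (adjusted p = 3.99e-05), with -0.57 in B6 and 0.61 in FlipFlop, so that Wnt3 and Tle4 were called in opposite directions in the 2 strains. For Lef1 it was -0.33 (adjusted p = 9.24e-05), with 0.10 in B6 and 0.75 in FlipFlop, the same sign in both. For Axin2 it was 0.25 (adjusted p = 0.0258), with 0.19 in B6 and -0.31 in FlipFlop, neither called alone.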

How the results depend on the processing

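Of 17 calls by adjusted p in the 7 planned comparisons none reversed, and 12 held under every setting in which they were tested but the fold rules, and without each library (the 5 of Wnt3 were not tested at a mean of at least 5 CPM); the exceptions were Tcf7 in B6, Axin2 in the locus effect, Lef1 and Apc in the strain effect and Lef1 between the Cd8a-locus groups. Under both fold rules (more than 5-fold with p under 0.05 or under 0.0001) the members called fell to 0 in every comparison except FlipFlop CD4 minus CD8, where 1 was left; for Wnt3 in B6 and in the locus effect, missing 5-fold rests on the added 0.5 CPM. With 0.1 CPM added, 2 members were called between the Cd8a-locus groups, and with 1 CPM added 2 in the coreceptor effect, Wnt3 being the gain each time. With a mean of at least 5 CPM required, 1 was called between the Cd4-locus groups, because Wnt3 was then not tested. Leaving out 1 library gave 2 to 3 members in B6, 3 to 4 in FlipFlop, 3 to 4 in the locus effect, 1 to 2 in the coreceptor effect, 1 to 3 in the strain effect, 0 to 1 between the Cd8a-locus groups and 2 to 3 between the Cd4-locus groups. The cause was not tested. With a replicate block by number, limma called 3, 3, 4, 1, 3, 1 and 3 members in the 7 comparisons. The order is B6, FlipFlop, locus, coreceptor, strain, Cd8a-locus and Cd4-locus groups. The gain was Apc between the Cd4-locus groups (0.64, limma adjusted p = 0.040). With the block within strain, which ties same-numbered libraries of a strain, no call changed. Depth limits Wnt3 alone of the 8: 2 reads in B6 CD8 cannot fix its level there.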

Other observations

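In the table but under the filter were 6 further Wnt pathway genes, given as levels with no test. Dkk3, a secreted protein of the Dickkopf family, was at 0.480 ± 0.126 CPM in B6 CD4 and 0.724 ± 0.0414 in FlipFlop CD8, against 0.0110 ± 0.0191 in B6 CD8 and 0.0354 ± 0.00229 in FlipFlop CD4. Its Cd8a-locus libraries held at most about 1 read, while every Cd4-locus library was at 0.338 CPM or more. Apc2, a relative of Apc, was at 0.481 ± 0.0930 CPM in B6 CD4 with 0.384 ± 0.0880 in FlipFlop CD8, against 0.0627 ± 0.0257 in B6 CD8 with 0.0956 ± 0.0461 in FlipFlop CD4. The receptor gene Fzd6 was at 0.771 ± 0.185 CPM in FlipFlop CD8 and at most 0.355 CPM in any other library, and Fzd10 at 0.469 ± 0.166 CPM against at most 0.226 CPM. Ccnd1, a cyclin gene, was at 1.19 ± 0.336 CPM in FlipFlop CD8 and at most 0.858 CPM elsewhere. Tle2, a corepressor of the family of Tle3 and Tle4, ran from 0.214 ± 0.0938 CPM in FlipFlop CD8 to 0.580 ± 0.247 in FlipFlop CD4, with overlapping libraries.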
